A study of Rattus norvegicus with 288 samples.

Results

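Temsirolimus followed by sorafenib was examined in rat heart at 24 h, in the 4 hearts whose titles name both drugs and that time, out of 96 heart arrays and 288 arrays in the series. The rats were male Sprague-Dawley animals aged 7-8 weeks. The treated rats (6M65, 6M66, 6M71 and 6M72) were given temsirolimus iv at 0.3 mg/kg and then sorafenib po at 25 mg/kg. The 4 control rats (2M17, 2M18, 2M23 and 2M24) were given TEM_vehicle iv and F68/PG/PEG400 po, the carriers of each drug. A further 4 rats (4M41, 4M42, 4M47 and 4M48) had temsirolimus at 0.3 mg/kg with F68/PG/PEG400, and another 4 (8M89, 8M90, 8M95 and 8M96) had TEM_vehicle with sorafenib at 25 mg/kg. All 4 groups therefore received an iv and an oral dose once and were sampled 24 h later, and each heart (apex with both ventricles) gave 1 Affymetrix array. The deposited values are log2 signals after RMA, and 14218 genes were compared.

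Temsirolimus inhibits mTOR, the kinase that couples nutrient and growth factor signals to protein synthesis. Sorafenib inhibits RAF kinases and the receptor tyrosine kinases for VEGF and PDGF, and is used against kidney, liver and thyroid cancer. Cardiomyocytes fill most of the volume of the heart, but endothelial cells, fibroblasts and resident macrophages are numerous in it. Resident macrophages of the heart clear debris, make complement component C1q and depend on signalling through the CSF1 receptor. In bulk tissue, fewer cells of a type and less RNA per cell cannot be told apart.

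After both drugs, transcripts of resident macrophages had the lowest median change of all gene lists examined, and the leading genes were lower 4.82-fold (F13a1) and 3.14-fold (Mrc1). Of the cell cycle genes 4 of 30 fell, and of the VEGF and endothelial tip genes 3 of 27, while Ccn2, Txnip, Klf10, Phlda1, Colq and Edn1 rose. In all, a linear model across all genes (limma) called 95 of 14218 genes (0.668%) at a Benjamini-Hochberg adjusted p under 0.05, of which 14 rose (0.0985% of the genes tested) and 81 fell (0.57%). In 82 of the 95, the 4 treated and the 4 control rats did not overlap, against 6.2% of all genes tested. The median change of all genes was 0.00 on the log2 scale.

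The labelled tissue was borne out by its markers: the mean log2 signal of 9 cardiac muscle genes was 14.02 to 14.16 in the vehicle hearts and 14.09 to 14.20 after both drugs. The values hold no detection calls, so no marker could be called absent. Over 5 atrial muscle genes the level was 9.86 in vehicle rat 2M23, 8.43 to 8.74 in the other vehicle rats and 7.83 to 8.72 after both drugs. The lowest log2 change of all genes, -2.80, was that of an atrial gene, which did not pass. Hepatocyte genes, which the heart should lack, were unequal between rats. Their mean log2 signal over 15 genes was 6.00 to 6.45 in the 4 vehicle hearts. After both drugs it was 9.79 in rat 6M65 and 8.44 in rat 6M66 but 6.11 and 5.92 in the others, it was 8.07 and 8.72 in rats 8M89 and 8M90 after sorafenib, and it was 11.95 in rat 4M42 after temsirolimus. All 15 hepatocyte genes lay above 0 in the comparison of both drugs with vehicles, with a median log2 difference of 1.45, and 0 passed the test. Rats 6M65, 6M66, 8M89 and 8M90 were on the first of the 2 array sets, each of which held 2 rats of every group, so array set was a term of the fit. With the 5 hearts above a hepatocyte level of 7 left out, 54 genes were called in place of 95, and 47 of them were among the 95. What these transcripts contributed to the other results was not tested.

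**Figure D1:**
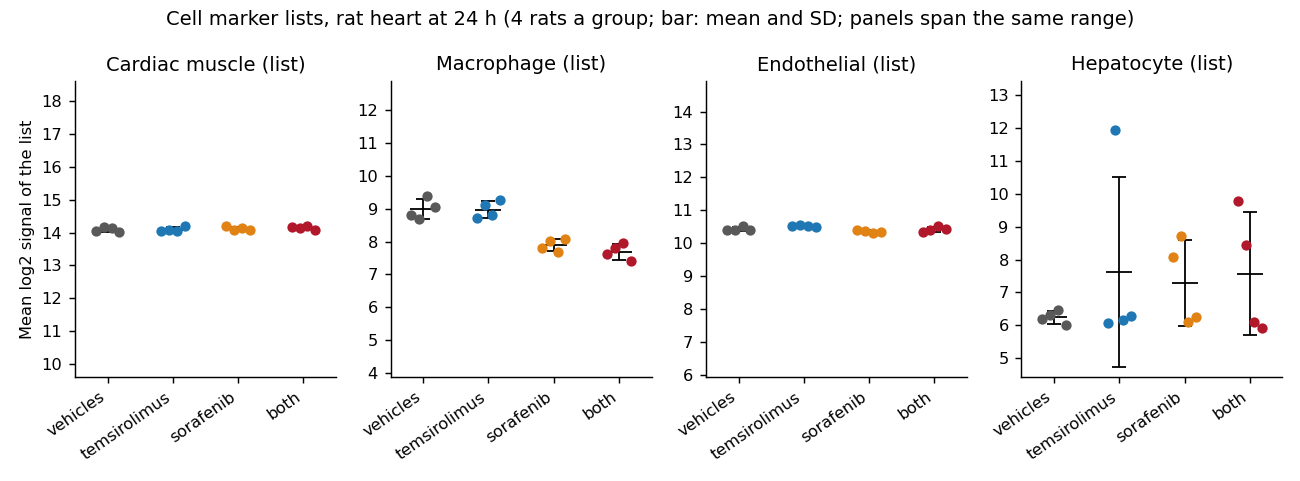
Mean log2 signal of 4 marker lists (vertical axes, each spanning the same range) in the 4 rats of each group at 24 h; points are rats, and bars show the mean and SD. The macrophage level of the rats given sorafenib, with or without temsirolimus, lies below that of every other rat (at most 8.08 against at least 8.70), the cardiac muscle level stays between 14.02 and 14.21, and 5 treated hearts have a hepatocyte level above 7.

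Of the 10 macrophage markers measured, 8 fell after both drugs, 0 rose, and the median log2 change was -1.42. Only 0.57% of all genes fell. The mean log2 signal of the list was 8.70 to 9.38 in the vehicle hearts and 7.39 to 7.95 after both drugs. The list had been written with earlier results of these data known, and cells outside the macrophage lineage also use some of its genes.

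F13a1, the A chain of coagulation factor XIII and a gene of resident tissue macrophages, had the largest fall among the called genes. Its log2 signal was 8.40, 8.21, 9.11 and 8.56 in the vehicle rats and 5.81, 6.43, 6.72 and 6.23 after both drugs. The groups were more than a whole log2 unit apart. The fitted log2 change was -2.27 ± 0.23 (SE; adjusted p = 1.91e-11, limma). F13a1 kept this call under each of 17 alternatives, with changes between -2.37 and -2.13, and its dimmer probe set fell by 1.16 ± 0.14.

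Mrc1, the mannose receptor, had log2 signals of 9.36, 9.01, 9.80 and 9.50 in vehicle rats and 7.60, 8.07, 8.04 and 7.34 after both drugs. Its log2 change was -1.65 ± 0.17 (SE, adjusted p = 4.14e-11). Lyve1, a hyaluronan receptor of resident macrophages and lymphatic endothelium, was at 9.20, 9.31, 10.16 and 9.59 against 8.35, 8.09, 8.06 and 8.05. Every treated rat lay below every vehicle rat for both receptors, and Lyve1 fell by 1.43 ± 0.19 (SE, adjusted p = 2.64e-07) on the log2 scale. Cd163, the receptor for haemoglobin and haptoglobin, fell by 0.95 ± 0.23 (SE, adjusted p = 0.0229), with overlap between the lowest vehicle rat at 6.92 and the highest treated rat at 6.98.

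The 3 chains of C1q, the recognition unit of the classical complement pathway, fell together. C1qa was at 9.47, 9.45, 9.94 and 9.88 in vehicle rats and 8.08, 8.32, 8.63 and 7.91 after both drugs. C1qb was at 9.45, 9.39, 9.93 and 9.78 against 7.96, 8.07, 8.44 and 7.68. The vehicle and treated rats did not overlap for either chain. The log2 changes were -1.45 ± 0.21 for C1qa (SE, adjusted p = 1.48e-06), -1.60 ± 0.22 for C1qb (adjusted p = 8.43e-07) and -1.42 ± 0.19 for C1qc (adjusted p = 4.14e-07).

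Csf1r, the receptor for the growth factors that macrophages need to survive, was at 9.09, 9.02, 9.46 and 9.11 in vehicle rats and 8.22, 8.22, 8.48 and 8.03 after both drugs. It fell by 0.93 ± 0.13 on the log2 scale (SE, adjusted p = 8.43e-07). Aif1, an actin-binding protein of macrophages, fell by 1.67 ± 0.28 (SE, adjusted p = 5.14e-05), but a dimmer probe set of the same gene had a log2 difference of 0.09. The 2 list members that did not pass were Cd68, a lysosomal protein, at -0.68, and Cd14, a receptor for bacterial lipopolysaccharide, at -0.59. Further called genes with a known place in macrophages, chosen after their values were seen, were Stab1 (-1.19), a scavenger receptor, Adgre1 (-1.10), an adhesion receptor, Folr2 (-1.01), a folate receptor, and Ctss (-0.98), a lysosomal protease.

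Single called genes known from macrophages and mast cells were picked after their values were seen, so they give no evidence on a pathway. Alox5ap, the activating protein of 5-lipoxygenase, averaged a log2 signal of 7.77 ± 0.13 after vehicles and 6.80 ± 0.29 after both drugs (SD, n = 4). Alox5, the lipoxygenase itself, changed by -0.67, Ltc4s, the leukotriene C4 synthase, by -0.74 and Hpgds, a prostaglandin D synthase, by -0.91. Fcna, a ficolin, changed by -1.17, Maf, a transcription factor, by -0.76 and Cybb, the NADPH oxidase subunit of phagocytes, by -0.80.

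**Figure D2:**
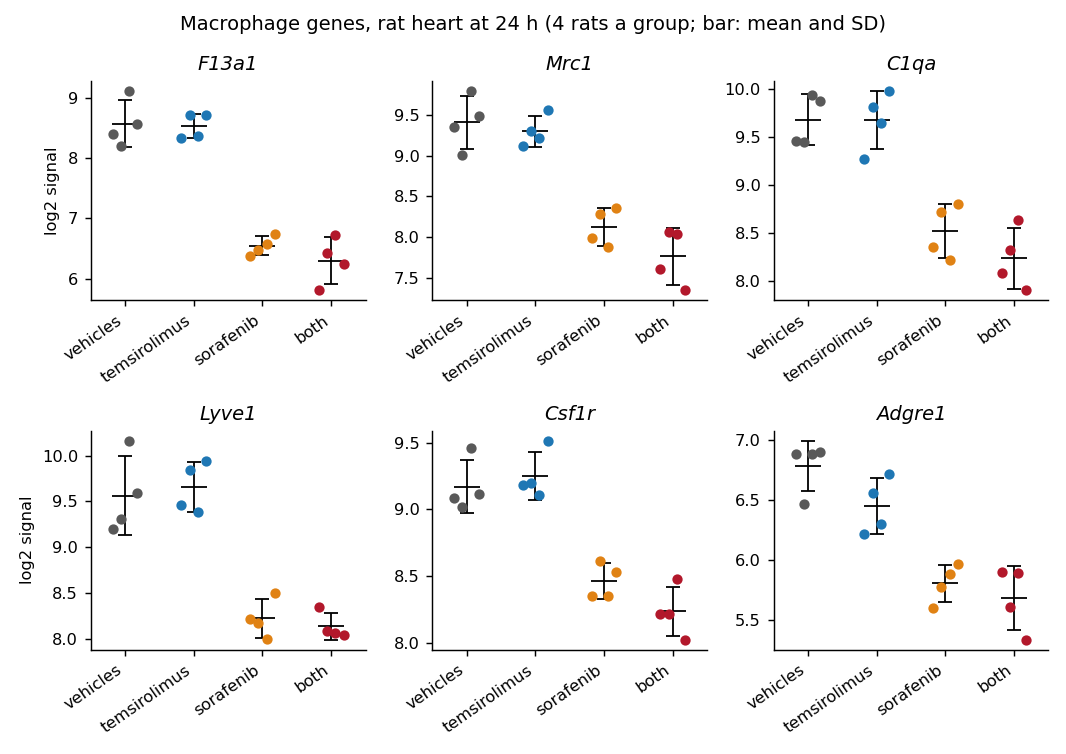
Log2 signal (vertical axes) of 6 macrophage genes in each of the 4 rats of the 4 groups at 24 h; points are rats, and bars show the mean and SD. The rats given sorafenib alone or both drugs lie below all rats given vehicles or temsirolimus for each of the 6 genes, as for F13a1, at 5.81 to 6.75 against 8.21 to 9.11.

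The median change of the macrophage markers was negative in both array sets, which differed in hepatocyte transcripts. In the first array set, whose 2 treated hearts carried them, the median log2 change of the 10 markers was -1.05. In the second set, whose treated hearts did not, it was -1.70. With the 5 hearts above the hepatocyte level of 7 left out, 8 of the 10 markers fell and the median was -1.62. With the hepatocyte level as a covariate, 9 fell. Hepatocyte level and array set go together in the rats given both drugs, so they cannot be told apart. What hepatocyte transcripts contributed to the fall was not tested.

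For markers of other blood cells the median log2 changes were -0.02 over 7 neutrophil and granulocyte genes, -0.02 over 10 T and NK cell genes and -0.06 over 3 B cell genes. None was called, which at 0.668% of all genes called says little of lists this short. Among 10 smooth muscle and pericyte genes, Cspg4, a proteoglycan of pericytes, fell (-0.42). The 9 endothelial and 10 fibroblast markers had 0 called and medians of 0.00 and 0.03.

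The promoter window of F13a1, the called gene that fell most, is shown with the one match to GAGGAAGT, a core that the macrophage factor PU.1 is known to bind. Windows run from 250 bases before to 50 bases after the gene's start and are RefSeq sequences of build GRCr8. This window is chr17:28020947-28021246 on the plus strand, capitals mark the match, and 2.42% of 33469 promoter windows hold these letters on either strand, as does 1 of the 9 macrophage markers with a window.
F13a1: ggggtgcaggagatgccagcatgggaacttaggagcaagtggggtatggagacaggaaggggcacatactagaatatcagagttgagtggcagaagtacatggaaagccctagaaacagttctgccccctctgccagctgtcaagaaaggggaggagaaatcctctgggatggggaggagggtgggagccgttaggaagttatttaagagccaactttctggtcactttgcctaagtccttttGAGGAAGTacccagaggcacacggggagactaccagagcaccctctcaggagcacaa

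Endothelial genes named in VEGF signalling and tip cell studies fell in part. Of 27 measured, 3 fell, 0 rose and 24 did not pass, with a median log2 change of -0.07. Of all genes tested, 0.57% fell. Pcdh17, a protocadherin, was at 7.57, 7.66, 8.24 and 7.76 in vehicle rats and 6.85, 6.79, 6.89 and 6.80 after both drugs. It fell by 0.98 ± 0.14 on the log2 scale (SE, adjusted p = 3.57e-06), and its 2 further probe sets were lower too, by -1.40 and -1.07. Adamts9, a protease of the pericellular matrix, fell by 0.75 ± 0.13 (SE, adjusted p = 7.97e-05), and Hlx, a homeobox factor, by 0.37 ± 0.09 (SE, adjusted p = 0.0227). A dimmer probe set of Adamts9 had a log2 difference of 0.09, and Hlx lost its call without any one of 5 rats. Outside the list and chosen after their values were seen, Rbp7, a retinol-binding protein of capillary endothelium, averaged 9.02 ± 0.38 after vehicles and 7.58 ± 0.21 after both drugs (SD, n = 4) and fell by 1.44 ± 0.20 (SE, adjusted p = 8.43e-07), and Ccl21, a chemokine of lymphatic endothelium, fell by 1.17 ± 0.25 (SE, adjusted p = 0.00392).

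Kdr, the main signalling receptor for VEGF and a target of sorafenib, did not pass after both drugs. Its log2 signal was 10.71, 10.68, 10.74 and 10.81 in vehicle rats and 10.26, 10.13, 10.16 and 10.25 after both drugs, so the groups did not overlap. The log2 difference was -0.54 ± 0.15 (SE, adjusted p = 0.0794). Kdr passed under 3 of 17 alternatives: repeated quantile normalization (adjusted p = 0.0441), only the 32 hearts at 24 h (0.00222) and only the 16 hearts of the 4 groups (0.000795). Esm1, a proteoglycan secreted by tip cells, differed by -0.83 ± 0.29 (SE, adjusted p = 0.244), with vehicle rat 2M17, at 6.03, inside the range of the treated rats, 5.42 to 6.31. Of the 12 kinases on the list of sorafenib targets, Csf1r alone fell after both drugs.

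Genes of DNA replication and mitosis were lower after both drugs: 4 of 30 fell, 0 rose, 28 lay below 0 and the median log2 change was -0.26. Of all 14218 genes, 0.57% fell and 7103 lay below 0. Ccna2, cyclin A2, was at 6.47, 5.15, 6.37 and 6.64 in vehicle rats and 4.31, 4.62, 4.70 and 4.66 after both drugs. The treated rats lay below every vehicle rat, of which 2M18 was the lowest. Ccna2 fell by 1.59 ± 0.30 on the log2 scale (SE, adjusted p = 0.000492). It was dim, with a mean log2 signal of 5.93 over the heart arrays, below the signal filter at 6. Cdk1, the kinase that drives entry into mitosis, was at 8.36, 7.11, 8.48 and 8.74 against 6.65, 6.94, 7.19 and 6.86. Vehicle rat 2M18 overlapped with the treated rats, and Cdk1 fell by 1.26 ± 0.33 (SE, adjusted p = 0.0465).

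Top2a, the topoisomerase that untangles replicated DNA, fell by 1.10 ± 0.25 on the log2 scale (SE, adjusted p = 0.0156), and Uhrf1, which maintains DNA methylation, by 0.66 ± 0.17 (SE, adjusted p = 0.0377). For both, rat 2M18 lay within the range of the treated rats, and a dimmer probe set of Top2a differed by -0.35 (adjusted p = 0.335). Uhrf1 averaged 5.98 over the heart arrays, also below the signal filter at 6. Cdk1 lost its call without any one of 7 rats and Uhrf1 without any one of 7, and Top2a without any one of 4 (2M17, 2M23, 2M24 or 6M72). When the 5 hearts above the hepatocyte level of 7 were left out, 1 of the 30 genes fell.

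Promoters of Cdk1 (chr20:19265043-19265342, plus strand) and Top2a (chr10:84473044-84473343, minus strand) are shown because both genes fell and their windows hold letters typical of genes expressed in mitosis. Capitals mark CCAAT and TTTGAA, the cell cycle homology region, on either strand. CCAAT is in 37.5% and TTTGAA in 18.3% of all 33469 windows, and in 15 and 9 of the 24 cell cycle genes with a window.
Cdk1: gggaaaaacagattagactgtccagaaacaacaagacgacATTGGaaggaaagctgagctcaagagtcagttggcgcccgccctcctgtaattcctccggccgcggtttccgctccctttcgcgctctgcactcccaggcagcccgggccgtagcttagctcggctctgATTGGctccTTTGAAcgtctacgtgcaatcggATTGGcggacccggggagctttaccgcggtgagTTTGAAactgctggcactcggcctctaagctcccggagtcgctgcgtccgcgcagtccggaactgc
Top2a: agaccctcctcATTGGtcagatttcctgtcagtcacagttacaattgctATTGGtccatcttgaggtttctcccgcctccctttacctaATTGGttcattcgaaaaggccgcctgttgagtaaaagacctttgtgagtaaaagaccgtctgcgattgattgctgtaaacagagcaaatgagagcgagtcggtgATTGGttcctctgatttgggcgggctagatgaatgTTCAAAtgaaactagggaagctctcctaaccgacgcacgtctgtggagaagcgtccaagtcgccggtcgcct

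Among the genes that rose, Ccn2, a matrix-associated growth factor of stressed heart muscle and fibroblasts, had the largest change. The log2 signal of Ccn2 was 10.02, 11.49, 10.99 and 10.33 in vehicle rats and 12.05, 11.85, 11.80 and 11.58 after both drugs. The treated rats were closer together than the vehicle rats and lay above them, by 1.11 ± 0.22 on the log2 scale (SE, adjusted p = 0.00197). Ccn2 lost its call without vehicle rat 2M17. Txnip, an inhibitor of thioredoxin and of glucose uptake, was at 12.07, 11.66, 11.49 and 11.91 against 12.38, 12.72, 12.97 and 12.90. It rose by 0.96 ± 0.17 (SE, adjusted p = 0.00018), without overlap between the groups.

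Klf10, a transcription factor induced by TGF-beta, rose by 0.71 ± 0.18 on the log2 scale (SE, adjusted p = 0.0337), and Phlda1, a regulator of receptor signalling, by 0.69 ± 0.17 (SE, adjusted p = 0.0337). Klf10 lost its call without any one of 7 rats and Phlda1 without any one of 6. Colq, the collagen tail of acetylcholinesterase, rose by 0.58 ± 0.10 (SE, adjusted p = 0.000103), and Edn1, the precursor of the vasoconstrictor endothelin-1, by 0.57 ± 0.11 (SE, adjusted p = 0.00192). Edn1 was at 6.46, 6.40, 6.21 and 6.39 in vehicle rats and 6.98, 6.68, 7.11 and 6.96 after both drugs, with every treated rat above every vehicle rat. The other 8 genes that rose changed by 0.39 to 0.63.

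Heart stress genes other than Ccn2 did not pass: 1 of 16 on the list rose and 13 lay above 0, with a median of 0.24. Among all genes tested, 0.0985% rose. Nppa, the atrial natriuretic peptide gene, differed by 0.46 ± 0.39 on the log2 scale (SE, adjusted p = 0.877), Nppb, the B-type peptide gene, by 0.57 ± 0.23 (SE, adjusted p = 0.375) and Myh7, the slow myosin heavy chain, by 0.62 ± 0.39 (SE, adjusted p = 0.766). For Nppb the treated rats were at 12.89 to 13.23 and the vehicle rats at 11.61 to 13.39. Myh7 was at 13.27 in treated rat 6M71 and at 11.74 to 11.98 in the other treated rats.

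Of 20 genes induced by the ERK cascade, which lies under RAF, 18 did not pass and the median was 0.01, with 0.0985% of all genes risen and 0.57% fallen. Phlda1 rose, and Spry4, a feedback inhibitor of receptor signalling, fell by 0.34 ± 0.09 on the log2 scale (SE, adjusted p = 0.0387). Dusp6, the ERK phosphatase, differed by -0.80 ± 0.59 (SE, adjusted p = 0.831), and treated rats ranged from 7.12 to 9.64. Egr1, an immediate early factor, differed by -0.59 ± 0.23 (SE, adjusted p = 0.339). Idi1, an enzyme of cholesterol synthesis, fell by 1.03 ± 0.25 (SE, adjusted p = 0.0225), as 1 of 18 genes of that pathway. None of 20 mTOR pathway components passed, and Mtor itself was at 8.86, 8.61, 8.85 and 8.75 in vehicle rats and 8.59, 8.65, 8.68 and 8.63 after both drugs.

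Of the 25 pathway lists, 18 had 0 genes called after both drugs, and their medians ran from -0.23 for endoplasmic reticulum (ER) chaperones to 0.34 for the interferon response. In the interferon list, 15 of 17 genes lay above 0 and 0 passed. Mx1, an antiviral GTPase with the highest difference, was at 9.43, 6.71, 9.84 and 7.48 after both drugs and at 7.09 to 7.82 after vehicles, so 2 treated rats were high and the other two lay near or below the vehicle rats.

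The second question was whether the combination differed from the sum of both single-drug changes. No gene passed the test of departure from the sum: 0 of 14218 (0%) in limma, with 419 at an unadjusted p under 0.05. The departures themselves ran from -2.21 to 7.63 on the log2 scale, with a median of -0.05 and 9430 below 0. Temsirolimus alone had 9 called genes (0.0633%, 7 rose) and sorafenib alone 50 (0.352%, 46 fell). Both single-drug comparisons use the same vehicle rats as the combination, so their values are given side by side only. For the 95 genes called after both drugs, the 95% interval of the departure reached a median of 0.41 on the log2 scale to each side, and it included 0 for 93. Departures smaller than that could not be seen with 4 rats a group. These intervals are not adjusted for the number of genes tested, so larger departures could also fail to pass.

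F13a1 changed by -0.04 on the log2 scale after temsirolimus alone, by -2.03 after sorafenib alone and by -2.27 after both. Its departure was -0.21 with a 95% interval from -0.85 to 0.43. For Mrc1 the same 3 values were -0.11, -1.29 and -1.65, and the departure was -0.25 (-0.74 to 0.23). For C1qb they were -0.23, -1.40 and -1.60, with a departure of 0.03 (-0.60 to 0.66). The median over the 10 macrophage markers was -0.02 after temsirolimus, with 0 called, and -1.18 after sorafenib, with 7 that fell. Over the 30 cell cycle genes it was -0.16 after temsirolimus (26 below 0) and -0.28 after sorafenib (29 below 0), with 0 called after either, and -0.26 after both. Over the 27 VEGF and endothelial tip genes it was 0.06 after temsirolimus, with 0 called. After sorafenib it was -0.10, with 4 that fell, beside 46 of all 14218 genes.

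Ccna2 had changes of -0.91 after temsirolimus and -0.89 after sorafenib, neither of which passed (adjusted p = 0.512 and 0.344), and of -1.59 after both. Its departure was 0.22, with an interval from -0.62 to 1.05. Ccn2 had 0.48, 0.61 and 1.11, and a departure of 0.03 (-0.60 to 0.66). Txnip had 0.73, 0.61 and 0.96, and a departure of -0.38 (-0.86 to 0.10). For these 3 genes both single-drug differences had the sign of the combined change, and none of them passed.

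Irs1, the adaptor of the insulin receptor, is described because it had the largest departure among the 95 called genes, which did not pass the test. Its log2 signal was 5.38, 5.47, 5.55 and 5.35 after vehicles, 5.20, 5.35, 5.58 and 5.03 after temsirolimus, 5.68, 5.44, 5.33 and 5.39 after sorafenib, and 5.98, 5.60, 6.05 and 6.04 after both drugs. Rat 6M66 lay within the range of the sorafenib rats, and the 3 others lay above all rats of the other groups. Irs1 rose after both drugs by 0.48 ± 0.12 (SE, adjusted p = 0.0258). Its mean over the heart arrays was below the signal filter at 6. Its departure of 0.60 (0.27 to 0.93) had an unadjusted p of 0.000531 and an adjusted p of 1, so it did not pass.

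**Figure D3:**
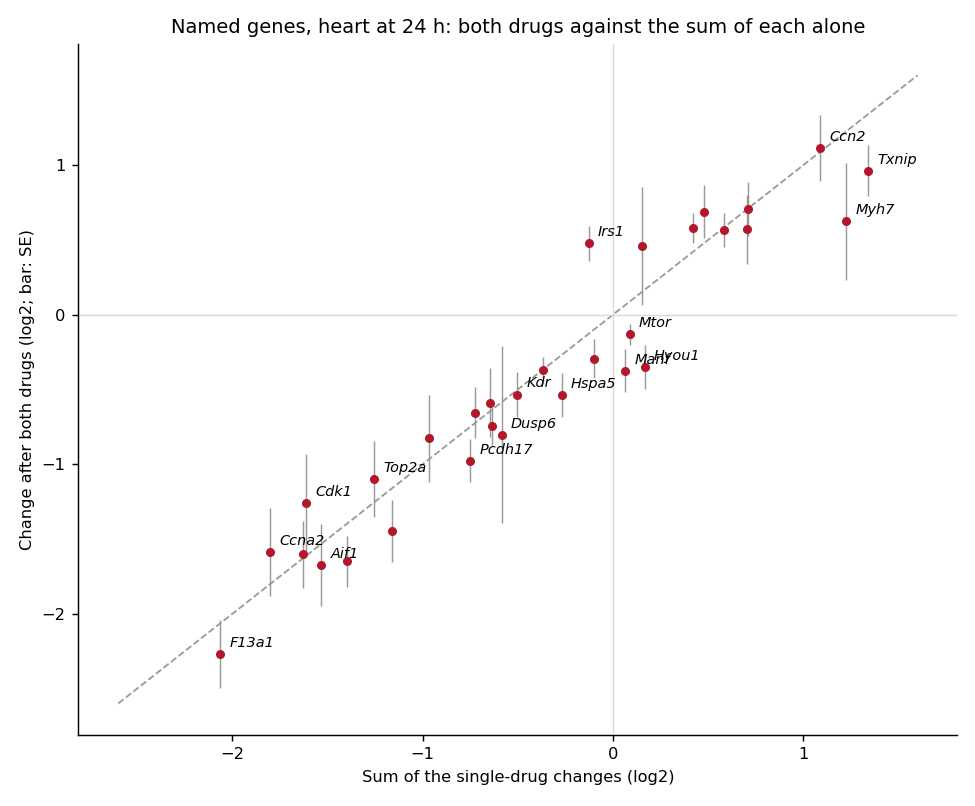
Log2 change after both drugs (vertical axis, with SE) against the sum of the log2 changes after temsirolimus and after sorafenib alone (horizontal axis) for the genes named in the comparison with vehicles and for Hyou1, Manf and Irs1. All 3 changes share the vehicle rats, which by itself draws points toward the dashed line of equality, and 0 genes passed the test of departure. Irs1 lies above the line (departure 0.60) and Hyou1 and Manf below it (-0.52 and -0.44).

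Adding sorafenib to temsirolimus was tested by comparing both drugs with temsirolimus alone. This called 122 genes (0.858%), 17 of them higher and 105 lower with sorafenib. The split depended on the scaling: after repeated quantile normalization 88 were called, 23 higher and 65 lower, and the median of all genes before it was -0.05. Macrophage genes again led: 8 of 10 markers fell, with a median of -1.37. F13a1 was at 8.34, 8.71, 8.37 and 8.71 after temsirolimus and at 5.81, 6.43, 6.72 and 6.23 after both drugs, a change of -2.23 ± 0.23 (SE, adjusted p = 3.78e-11). The next largest falls were Aif1 (-1.66), Fcmr, an Fc receptor for IgM (-1.66), Mrc1 (-1.54) and Lyve1 (-1.52).

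Of the 27 VEGF and endothelial tip genes, 7 fell, beside 105 of all 14218 genes. Kdr was among the 7 (-0.62 ± 0.15, SE, adjusted p = 0.0211), and Mtor fell by 0.33 ± 0.07 (SE, adjusted p = 0.00573). The largest rises were Angpt1, a ligand of the endothelial receptor Tie2 (1.01 ± 0.23, SE, adjusted p = 0.0116), Cyria, a regulator of actin branching (1.00 ± 0.21, adjusted p = 0.00255), and Rcan1, an inhibitor of calcineurin (0.98 ± 0.22, adjusted p = 0.00701). Phlda1 rose by 0.84 and Irs1 by 0.62. Angpt1 lost its call without rat 4M41, 6M65 or 6M72. Angpt1 was at 5.54, 5.89, 6.17 and 6.39 after temsirolimus and at 7.36, 6.50, 7.03 and 7.13 after both drugs.

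Sorafenib given alone against vehicles shares no array with this comparison, so both can be set beside each other. Of the 122 genes called when sorafenib was added to temsirolimus, 37 (30.3%) were also called for sorafenib alone, which is 74% of its 50. The sign was the same for 115 of the 122, against 59.03% of all genes. The median log2 change over the 122 was -0.49 with temsirolimus present and -0.27 without it. The 122 were chosen by the first of these comparisons, and none of their differences between both comparisons passed.

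Adding temsirolimus to sorafenib was tested by comparing both drugs with sorafenib alone. Only 4 genes were called (0.0281%), and all 4 fell: Hspa5, Hyou1, Manf and Selenos. Hspa5 (BiP) and Hyou1 are chaperones of the ER lumen, Manf is a secreted factor that binds BiP, and Selenos is a selenoprotein of ER-associated degradation. ER chaperones fold secreted and membrane proteins, and their genes are induced when unfolded protein accumulates.

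Hspa5 was at 12.07, 11.96, 11.98 and 12.13 after vehicles and 11.60, 11.54, 11.42 and 11.66 after temsirolimus. It was at 12.55, 12.04, 12.18 and 12.24 after sorafenib and 11.93, 11.40, 11.40 and 11.26 after both drugs. Every rat given both drugs lay below every rat given sorafenib, by 0.75 ± 0.15 on the log2 scale (SE, adjusted p = 0.0377). Hyou1 was at 8.82, 8.38, 8.18 and 8.26 after sorafenib and 7.62, 7.82, 7.88 and 7.40 after both drugs, without overlap, and fell by 0.73 ± 0.15 (SE, adjusted p = 0.0377).

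Manf was at 10.65, 10.34, 10.55 and 10.55 after sorafenib and 10.16, 9.72, 9.79 and 9.73 after both drugs, a fall of 0.67 ± 0.14 on the log2 scale (SE, adjusted p = 0.0447). Selenos was at 10.32, 10.27, 10.47 and 10.48 against 9.94, 9.73, 10.13 and 9.97, a fall of 0.44 ± 0.09 (SE, adjusted p = 0.0447). Neither gene overlapped between the groups. All 22 ER chaperone and unfolded protein response genes lay below 0, 3 fell, and the median was -0.30 beside -0.01 for all genes.

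These 4 calls were close to the threshold. Hspa5 lost its call without any one of 6 rats, as did Hyou1 and Manf, and Selenos without any one of the 8 rats of both groups. Within either array set, at 2 rats against 2, 0 genes were called, and the changes of Hspa5 were -0.63 and -0.88. The hearts above the hepatocyte level of 7 are all those of the first set in both groups, so leaving them out only repeats the second set. Rats 8M95 and 8M96, the second pair given sorafenib alone, were on a plate apart from the second pairs of the other groups, so in that set plate and group cannot be told apart. The 22 genes had medians of -0.30 and -0.28 in the 2 sets.

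Against vehicles, the ER genes had 0 calls after both drugs, with a median of -0.23 and all 22 below 0. With the hepatocyte level as a covariate 3 of them fell, and the median was -0.33. Hspa5 differed by -0.54 ± 0.15 (SE, adjusted p = 0.0683), and passed under 3 of 17 alternatives, among them that covariate (adjusted p = 0.0268), and Hsp90b1, the ER form of HSP90, by -0.30 ± 0.13 (SE, adjusted p = 0.486). The list median was -0.14 after temsirolimus alone and 0.07 after sorafenib alone. For Hyou1 the changes were -0.21 after temsirolimus, 0.38 after sorafenib and -0.35 after both, with a departure of -0.52 (-0.93 to -0.10, unadjusted p = 0.0161, adjusted p = 1). Temsirolimus alone against vehicles shares no array with the comparison of both drugs with sorafenib: 0 of its 9 called genes were among these 4, and all 4 were negative in it, with changes of -0.49 for Hspa5, -0.21 for Hyou1, -0.23 for Manf and -0.18 for Selenos.

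**Figure D4:**
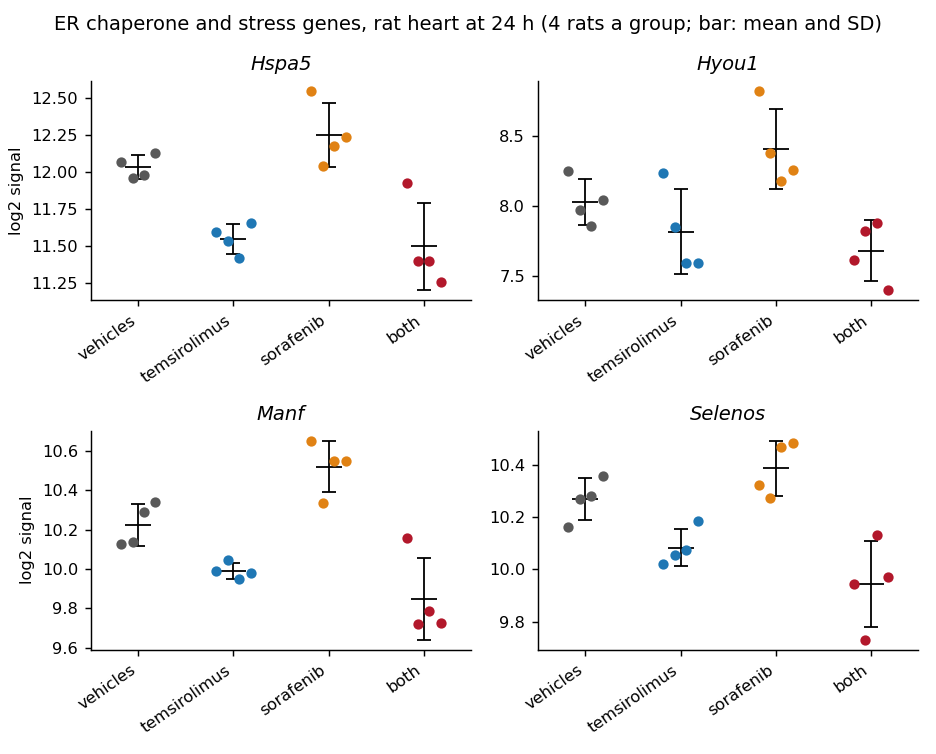
Log2 signal (vertical axes) of Hspa5, Hyou1, Manf and Selenos in each of the 4 rats of the 4 groups at 24 h; points are rats, and bars show the mean and SD. For each gene the rats given both drugs lie below the rats given sorafenib alone, as for Hspa5, at 11.26 to 11.93 against 12.04 to 12.55.

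Promoters of Hspa5, Hsp90b1, Hyou1 and Selenos are shown because Hspa5, Hyou1 and Selenos fell when temsirolimus was added to sorafenib (Hsp90b1 did not pass) and because ER chaperone promoters are known for the ER stress response element, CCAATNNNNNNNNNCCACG, in which N is any base. Capitals mark CCAAT and CCACG on either strand, and the element overlaps both. The full element is in 22 of 33469 windows (0.0657%), searched on both strands, and in 8 of the 18 ER list genes with a window: Calr, Canx, Creld2, Dnajc3, Ero1b, Hsp90b1, Hspa5 and Xbp1. Hspa5 holds it once, 43 bases before the gene's start, and Hsp90b1 has 2 matches. The full element is not in the windows shown for Hyou1 and Selenos, which hold CCAAT and CCACG in other arrangements. In Hyou1 the 2 CCACG matches, on the other strand, each lie close before a CCAAT (CGTGGgCCAAT and CGTGGcCCAAT). Other arrangements of these letters were not counted over all windows. Absence of the full element does not mean that Hyou1 or Selenos lacks an element of another form, which was not tested. Hyou1 has 2 windows, and the first by position is shown. CCAAT alone is in 37.5% and CCACG in 31.6% of all windows. The windows are chr3:38452766-38453065 (Hspa5, plus strand), chr7:23012244-23012543 (Hsp90b1, minus strand), chr8:53602632-53602931 (Hyou1, plus strand) and chr1:129069990-129070289 (Selenos, plus strand).
Hspa5: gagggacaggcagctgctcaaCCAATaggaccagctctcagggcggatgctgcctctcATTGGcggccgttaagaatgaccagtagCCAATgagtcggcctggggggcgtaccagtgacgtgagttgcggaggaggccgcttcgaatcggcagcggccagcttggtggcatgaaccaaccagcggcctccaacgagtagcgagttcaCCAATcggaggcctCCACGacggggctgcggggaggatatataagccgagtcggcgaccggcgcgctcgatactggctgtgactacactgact
Hsp90b1: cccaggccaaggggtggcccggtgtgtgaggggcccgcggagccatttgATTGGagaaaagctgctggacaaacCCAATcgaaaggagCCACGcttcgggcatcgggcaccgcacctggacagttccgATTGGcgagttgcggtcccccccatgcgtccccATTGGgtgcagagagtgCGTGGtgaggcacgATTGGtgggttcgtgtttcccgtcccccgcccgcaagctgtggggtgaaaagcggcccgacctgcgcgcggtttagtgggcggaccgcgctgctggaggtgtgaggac
Hyou1: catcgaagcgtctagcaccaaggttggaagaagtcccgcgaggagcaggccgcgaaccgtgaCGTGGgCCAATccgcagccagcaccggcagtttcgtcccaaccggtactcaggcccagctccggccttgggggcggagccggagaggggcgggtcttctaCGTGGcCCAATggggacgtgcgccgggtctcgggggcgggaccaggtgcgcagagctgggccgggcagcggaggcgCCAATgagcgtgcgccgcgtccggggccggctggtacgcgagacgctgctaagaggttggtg
Selenos: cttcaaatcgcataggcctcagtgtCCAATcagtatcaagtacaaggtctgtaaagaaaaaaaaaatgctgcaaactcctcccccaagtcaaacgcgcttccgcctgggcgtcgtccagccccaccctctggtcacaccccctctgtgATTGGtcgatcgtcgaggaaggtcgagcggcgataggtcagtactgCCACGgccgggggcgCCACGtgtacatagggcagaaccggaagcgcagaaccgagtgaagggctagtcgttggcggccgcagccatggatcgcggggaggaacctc

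The combination was also compared with vehicles at 1 h (21 genes called, 0.148%) and 6 h (120, 0.844%), and its change at 24 h was tested against those times. The groups at each time are different rats. Between 6 h and 24 h, 1 gene changed (0.00703%), with 388 at an unadjusted p under 0.05. It was F13a1, whose log2 change was -0.02 at 1 h, -0.49 at 6 h and -2.27 at 24 h, a difference of -1.78 ± 0.32 between 6 h and 24 h (SE, adjusted p = 0.00678). The median over the 10 macrophage markers was 0.54 at 1 h, -0.29 at 6 h and -1.42 at 24 h, and 0 markers were called at the first 2 times. At 6 h the hepatocyte level was 9.52 and 10.40 in 2 of the 4 hearts given both drugs and at most 6.37 in the vehicle hearts.

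Between 1 h and 24 h, 43 genes differed (0.302%), of which 37 were lower and 6 higher at 24 h. The largest falls were F13a1 (-2.25 ± 0.32, SE, adjusted p = 3.5e-06), C1qb (-2.16) and Lyve1 (-2.15), and all 10 macrophage markers were among the 37. The largest rises were Ccn2 (1.37 ± 0.32, adjusted p = 0.0205), Edn1 (0.70) and Hbegf, a growth factor of the EGF family (0.69). In the heart of rat 6M68, 1 of the 4 given both drugs at 1 h, the hepatocyte level was 13.99 and the macrophage level 9.71, against 6.06 to 6.30 and 9.03 to 9.19 in the 3 others. Without that rat 37 genes differed, 25 of them the same, and Ccn2, Edn1 and Hbegf no longer passed.

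Some genes had changed by 6 h or earlier. Pcdh17 changed by -0.89 at 6 h and -0.98 at 24 h, a difference of -0.09 with a 95% interval from -0.50 to 0.32. Kdr was at -0.998 at 6 h, where it passed (adjusted p = 2.02e-05), and at -0.54 at 24 h, a difference of 0.46 (0.04 to 0.89) that did not pass (adjusted p = 1). Klf10 rose at all 3 times, by 0.87, 1.16 and 0.71, and Spry4 fell at all 3, with changes of -0.53, -0.53 and -0.34.

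**Figure D5:**
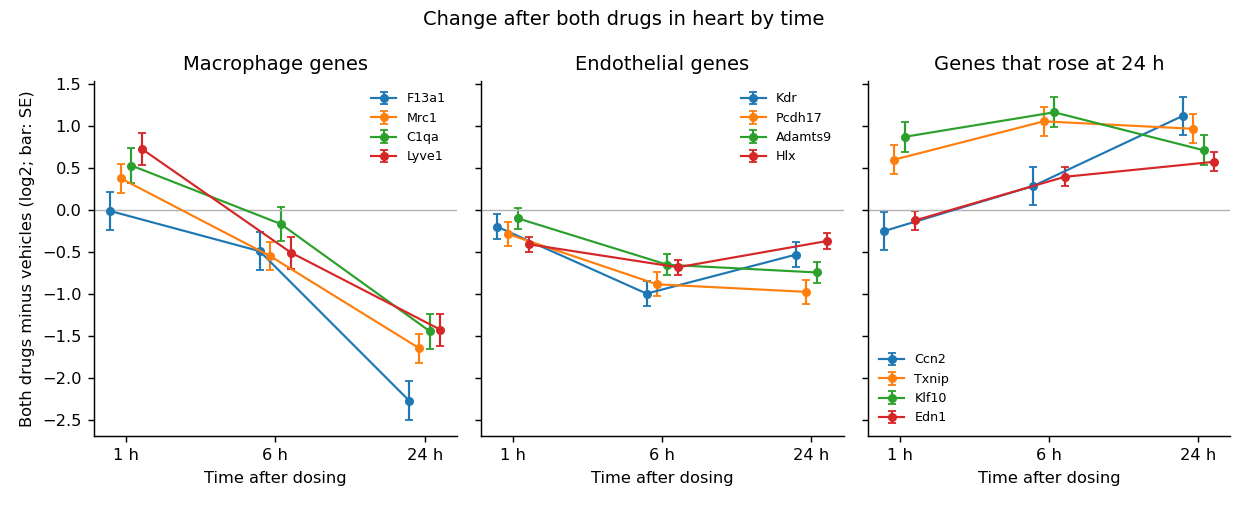
Log2 change after both drugs against vehicles (vertical axis, with SE) at 1, 6 and 24 h (horizontal axis) for 4 macrophage genes, 4 endothelial genes and 4 genes that rose at 24 h; each point compares 4 treated with 4 vehicle rats. The macrophage genes are lowest at 24 h (F13a1 -2.27), Kdr is lowest at 6 h (-0.998), and Ccn2 is highest at 24 h (1.11).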

How the data were processed

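Gene expression was measured in 288 heart, liver and bone marrow samples of 96 rats on Affymetrix arrays. The authors deposited log2 signals per probe set, made by RMA per the labels (background correction, quantile normalization and summarization of probes). Between-array differences in the overall distribution are thereby reduced but not fully removed. The 96 heart columns were used, with array medians of 6.88 to 7.06, and 192 columns of other tissues were not. Of 31099 probe sets, 20832 had 1 gene symbol, and the probe set with the highest mean stood for each of 14218 genes.

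Groups came from the labels, and doses are those of the study design. limma 3.58.1 (R 4.3.3) fitted 24 group means and 3 array-set terms to the 96 hearts, with 69 residual degrees of freedom, so that all groups share 1 estimate of the spread. Array sets are the first and second pair of rats of each group, which the plate numbers in the study's array names separate within each time. A plate may hold sets of different times. The second pair given sorafenib alone at 24 h was on another plate than the second pairs of the other groups, which the terms do not correct. P-values were adjusted by Benjamini-Hochberg over all genes, with a threshold of 0.05. Intervals are 95%. Each rat gave 1 heart, so p-values measure the spread between rats, and the number of arrays limits precision.

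Named genes were, among called genes without overlap between rats, the 6 that rose most and the 6 that fell most, as many as 4 members of any pathway list with 3 or more called, a fixed set of drug target, stress and signalling genes, the 5 largest each way when either drug was added, and the 3 largest each way between times. Members, the 25 pathway and 14 marker lists (608 of 676 genes measured) and named genes were chosen with earlier results of these data known. Alternatives were a signal filter at a mean log2 of 6, repeated quantile normalization, no array-set terms, 32 or 16 hearts, a hepatocyte covariate, every probe set, each array set alone, and omission of each rat. Omission of the 5 hearts with hepatocyte transcripts, and the list medians under these settings, were added after seeing the data. Genes with no measured probe set were not analysed here. Promoter windows are from RefSeq tables of GRCr8.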

Additional observations from a re-analysis of the deposited data

Results flagged for a closer look

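A rat far from the 3 others of its group was found in 8 of 112 groups of 4 tested by Dixon's criterion, which flags about 5% of groups by chance. Among the named genes these were Phlda1 in vehicle rat 2M18 (log2 signal 7.71, the next at 7.28), Top2a in the same rat (7.21, the next at 8.40) and Myh7 in rat 6M71 after both drugs (13.27, the next at 11.98). Among the marker levels they were hepatocyte genes in rat 4M42 after temsirolimus (11.95, the next at 6.27), cardiac muscle (14.21, the next at 14.07) and neutrophil genes (6.27, the next at 5.82) in rat 4M48 after temsirolimus, endothelial genes in vehicle rat 2M23 (10.52, the next at 10.41) and adipocyte genes in vehicle rat 2M24 (7.02, the next at 6.99).

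The change after both drugs differed between times by the test of the difference itself for 1 gene between 6 h and 24 h and for 43 genes between 1 h and 24 h. Outside the genes compared, 18 of 10216 probe sets without a single gene symbol passed between both drugs and vehicles, with p-values adjusted over all probe sets, and 14 of them fell.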

How the results depend on the processing

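No paired analysis was possible because the groups compared are hearts of different rats, and rat codes recur only across tissues of one rat. The departure from the sum had 0 genes called under every alternative. Against vehicles, 95 genes became 213 with only the 32 hearts at 24 h, 155 with the 16 hearts of the 4 groups, 22 and 24 in array sets 1 and 2, and 54 without the hearts above a hepatocyte level of 7. Leaving out 1 rat gave 38 (without 6M72) to 135 (without 2M18), with 41 without 2M23, 46 without 2M24, 61 without 2M17 or 6M65 and 63 without 6M71. Against temsirolimus, 122 became 218, 189, 57, 4 and 44 in the same order, and 51 to 145 with 1 rat left out: 51 without 6M65 or 6M72, 52 without 4M48, 75 without 4M41 and 77 without 4M42. Against sorafenib, 4 became 7 with repeated quantile normalization, 1 without array-set terms, 2 with 32 or 16 hearts, and 0 with every probe set, in either array set and without the hepatocyte-level hearts (which leaves the second set). With 1 rat left out it was 0 to 3, at 0 without 6M66, 6M72, 8M89, 8M95 or 8M96, 1 without 6M71 and 2 without 6M65. Between 1 h and 24 h, 43 became 164 with the hepatocyte covariate. With fewer hearts in the fit, counts rose in some settings and fell in others. Causes of these shifts were not tested. Of the 18 named genes called against vehicles, 4 kept the call under every alternative (F13a1, Mrc1, C1qb and Pcdh17), and 11 kept it without any single rat. Dusp6 and Myh7, neither called, reversed in array set 1, at 0.34 and -0.0628. Repeated normalization moved the median of all genes by -0.0026.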
